A study of Mus musculus with 24 samples.

Results

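The genes described here are 10 genes of the plasma cell program that lie outside the immunoglobulin loci: Jchain, Mzb1, Derl3, Fkbp11, Pou2af1, Irf4, Prdm1, Xbp1, Sdc1 and Tnfrsf17. They were taken as the rows of a raw count table whose Ensembl identifier maps to these symbols, 10 of 55487 genes, and they were read in all 8 groups of the study. Of the 10, 9 had enough counts to be tested and Tnfrsf17 did not. Poly(A) RNA was sequenced from 24 co-cultures in which spleen lymphocytes from mice bearing B16-F10-OVA tumours, an ovalbumin-carrying mouse melanoma line, were kept with bone-marrow-derived macrophages. By the sample titles the macrophages were Tmem175-/- (knockout), lacking a lysosomal cation channel, or WT. Another label of most knockout samples names a different gene, as given under processing. The labels give no genotype for the lymphocytes, no Cre or promoter and no age. Each macrophage genotype was sampled in 3 libraries with B16-F10-OVA tumour cell antigen and IL-1β at 500 pg/ml, in 3 with antigen and IL-18 at 500 pg/ml, in 3 with antigen alone and in 3 without antigen. Lymphocytes of tumour-bearing mice were common to all 24 cultures, those without antigen included. The labels do not say whether the 3 libraries of a group came from separate animals, macrophage preparations or wells, so p-values measure the spread between these libraries, which may be technical.

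Plasma cells are B lineage cells that secrete antibody in bulk. IRF4 and BLIMP-1, the product of Prdm1, switch a B cell to this state, and XBP1 expands the endoplasmic reticulum that folds and exports the antibody. The co-activator encoded by Pou2af1 (OBF-1) works with octamer-binding factors at immunoglobulin genes, and the J chain links antibody units into the polymers that B lineage cells secrete. Irf4, Prdm1, Xbp1 and Sdc1 are also known to be transcribed in macrophages, so in a mixed culture their RNA need not come from B lineage cells.

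Promoters of 9 of the 10 genes were read from RefSeq (GRCm38.p6), from 250 bases before to 50 bases after the start. They were searched on both strands for elements tied to these factors. Mzb1 was not among the 9, so nothing is said of its promoter. The letters searched were TGACGTGG (unfolded protein response element), CCAAT and CCACG with 9 bases between them (endoplasmic reticulum stress element, ERSE), ATTTGCAT (octamer) and GAAA repeated after a gap of 2 bases (a paired interferon response core). The end of the ERSE, CCACG, reads CGTGG on the opposite strand, which is also the end of the first motif. Pou2af1 and Derl3, which differed strongly between genotypes and rose with antigen in knockout cultures (Derl3 only narrowly), are shown with their matches in capitals, and Jchain, which had the widest fold between genotypes of the genes given one, is shown as a promoter with no match.
Pou2af1, chr9:51213440-51213739, + strand: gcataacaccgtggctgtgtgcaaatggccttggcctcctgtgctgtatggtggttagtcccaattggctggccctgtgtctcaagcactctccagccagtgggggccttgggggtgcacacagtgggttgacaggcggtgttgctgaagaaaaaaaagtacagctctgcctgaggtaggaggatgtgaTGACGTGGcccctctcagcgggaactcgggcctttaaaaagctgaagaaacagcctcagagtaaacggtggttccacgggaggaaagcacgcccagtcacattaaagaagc
Derl3, chr10:75893148-75893447, + strand: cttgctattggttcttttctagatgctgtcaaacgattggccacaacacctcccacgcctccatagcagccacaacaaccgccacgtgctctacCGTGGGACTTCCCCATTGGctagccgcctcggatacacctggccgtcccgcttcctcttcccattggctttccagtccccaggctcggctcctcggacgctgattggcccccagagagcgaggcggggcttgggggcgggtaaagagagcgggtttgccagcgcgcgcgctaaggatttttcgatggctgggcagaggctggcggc
Jchain, chr5:88527848-88528147, - strand: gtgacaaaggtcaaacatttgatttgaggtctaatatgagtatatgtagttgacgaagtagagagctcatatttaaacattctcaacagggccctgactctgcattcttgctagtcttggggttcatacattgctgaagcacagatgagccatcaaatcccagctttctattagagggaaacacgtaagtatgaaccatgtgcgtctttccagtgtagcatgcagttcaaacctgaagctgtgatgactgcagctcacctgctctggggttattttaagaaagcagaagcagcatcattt
The Pou2af1 capitals are the unfolded protein response element on the gene's own strand at position -61 from the start, a motif held by 0.676% of 32851 promoters. The Derl3 capitals are an ERSE on the opposite strand at position -156, a motif held by 0.119% of promoters. Tnfrsf17 held the interferon core (3.44% of promoters) at -101, and no gene of the 9 held the octamer (1.74%) in this window. These are letter matches in a window, not measured sites.

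The libraries held 17744540 to 24898552 counts, and replicates had a common biological coefficient of variation of 5.01%. Levels below are CPM, counts scaled to library size with TMM factors, and differences are log2 fold changes ± SE from edgeR's quasi-likelihood test over 14099 genes, called at a Benjamini-Hochberg adjusted p under 0.05. The targeted gene Tmem175 stood at 7.61 to 15.0 CPM in knockout libraries and 12.8 to 26.1 CPM in WT libraries. Within each condition all 3 knockout libraries were below all 3 WT libraries, with log2 fold changes of -0.91 to -0.79. Its RNA was reduced rather than lost, and the deleted part of the gene is not given in the labels. The summed CPM of 8 macrophage markers ran from 6524 to 10425 over all groups, against 14.5 to 24.2 for 10 T cell markers. In bulk RNA, fewer cells of a type and less RNA per cell cannot be told apart.

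In all 4 conditions most plasma cell genes tested were higher in cultures with knockout macrophages. With antigen and IL-1β, 7 of 9 were higher and 1 lower (7.22% of all tested genes were called higher and 6.55% lower, 13.8% in all). With antigen and IL-18 the count was also 7 higher and 1 lower (9.89% and 10.3% of all genes, 20.2% in all). With antigen alone 6 were higher and 1 lower (7.70% and 7.62%, 15.3% in all), and without antigen 7 were higher and none lower (9.62% and 7.25%, 16.9% in all). The sizes fell into groups: Jchain, Mzb1, Derl3 and Pou2af1 differed several-fold, Irf4 less, and Xbp1, Prdm1 and Sdc1 by less than 1.4-fold. Mzb1 and Derl3 reached the filter's 0.482 CPM in 12 of 12 knockout libraries and in 0 of 12 WT libraries, so they entered the test through the knockout groups and had to differ. Without them, a count added after the data were seen, 5 of 7 genes were higher and 1 lower with antigen and IL-1β and with antigen and IL-18, 4 higher and 1 lower with antigen alone, and 5 higher and 0 lower without antigen. For Mzb1 and Derl3 no p between genotypes is given. Their ratios, intervals and fold below describe levels and are not tests of a difference.

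**Figure D1:**
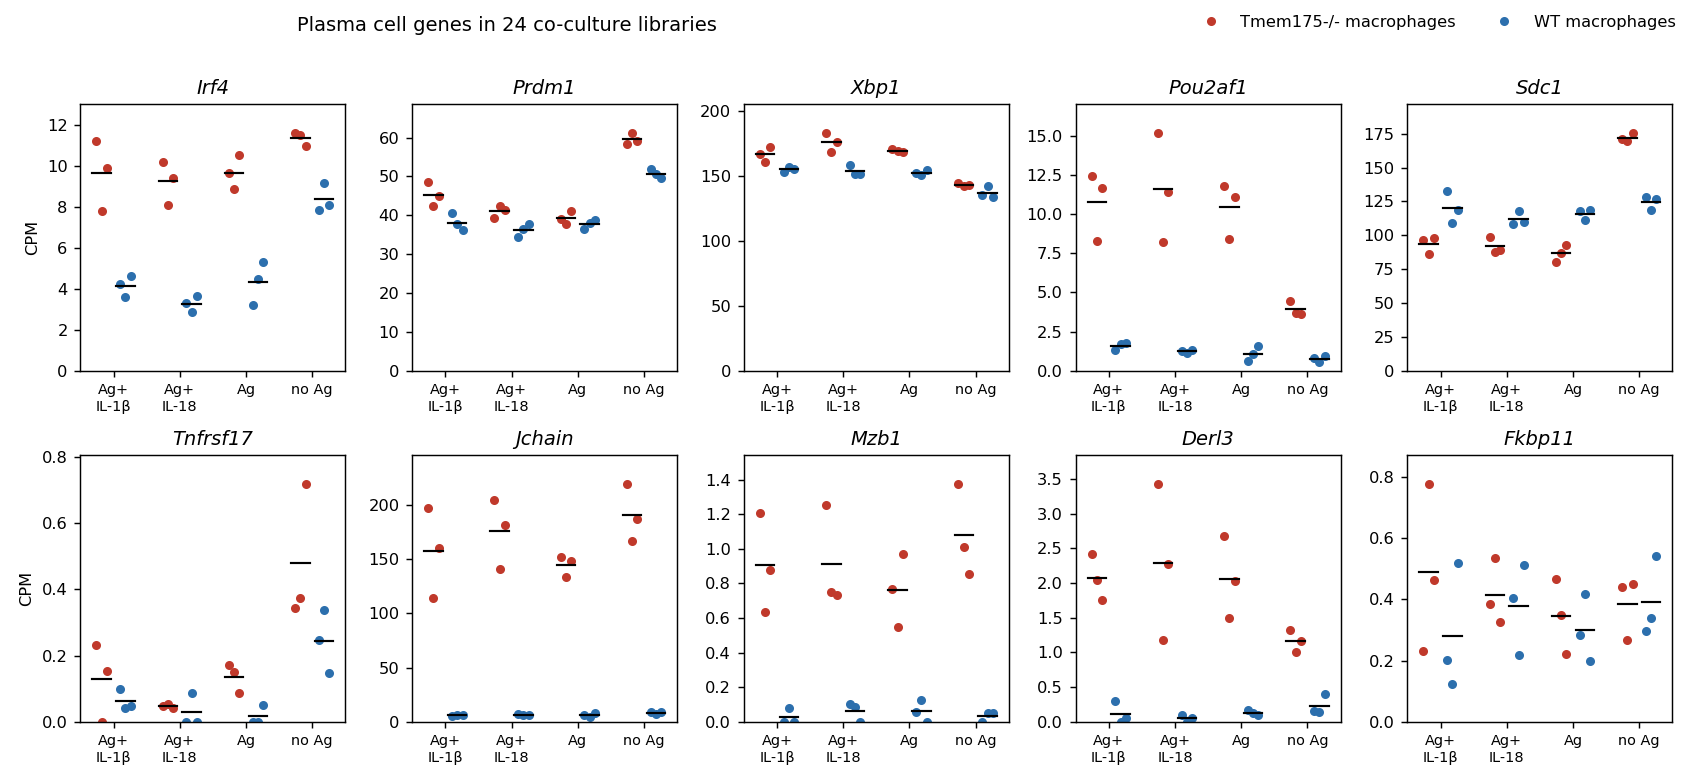
Level (CPM, linear axes from 0, scaled per gene) of the 10 plasma cell genes in each of 24 libraries, with Tmem175-/- libraries (red) left of WT libraries (blue) in each condition and a bar at the mean of 3. Jchain, Mzb1, Derl3 and Pou2af1 are several times higher in knockout libraries in every condition, Irf4 and Sdc1 do not overlap between genotypes but differ less, and Xbp1 and Prdm1 overlap in at least 1 condition.

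Jchain, the secreted antibody joining chain, had the highest level per length in knockout cultures without antigen and the widest difference among the genes given a fold. With antigen and IL-1β it stood at 197, 114 and 161 CPM in knockout libraries, against 5.72, 6.27 and 5.92 CPM in WT libraries. Jchain was at 205, 141 and 182 CPM in knockout libraries with antigen and IL-18, against 6.69, 6.40 and 6.06 CPM in WT. With antigen alone the knockout libraries held 152, 134 and 148 CPM, against 5.76, 4.69 and 7.79 CPM in WT. The lowest knockout library of each condition was many times above the highest WT library, and the second replicate was the lowest of the 3 knockout libraries in all 4 conditions. Immunoglobulin rows also took their lowest share of counts in that replicate, 0.313% to 0.412%, against 0.341% to 0.581% in the other knockout libraries, and were lowest there in each condition. Without antigen Jchain stood at 219.7, 167 and 187 CPM in knockout libraries and at 8.54, 7.38 and 9.45 CPM in WT libraries. The log2 fold changes were 4.72 ± 0.231 with antigen and IL-1β, 4.79 ± 0.228 with antigen and IL-18, 4.58 ± 0.233 with antigen and 4.50 ± 0.22 without it, from 22.6-fold to 27.6-fold (edgeR adjusted p 2.21e-10, 1.37e-10, 3.47e-10 and 1.90e-10 in the same order). WT cultures were low but not empty, with 102 to 192 Jchain counts per library.

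Mzb1, an endoplasmic reticulum chaperone of B and plasma cells that assists antibody assembly, was near absent from WT cultures. Its knockout counts were 26, 13 and 17 with antigen and IL-1β, against 0, 2 and 0 in WT. They were 26, 14 and 18 with antigen and IL-18, against 2, 2 and 0 in WT, and with antigen alone 18, 11 and 22, against 1, 3 and 0 in WT. Without antigen they were 28, 19 and 19, against 0, 1 and 1 in WT. No WT library reached the count of any knockout library. Because WT means were below 3 counts per library, no fitted fold is given. The ratio of summed counts per depth was 29.9 with antigen and IL-1β (56 against 2 counts, exact 95% interval 7.89 to 253) and 14.5 with antigen and IL-18 (58 against 4, interval 5.39 to 55.2). It was 11.9 with antigen (51 against 4, interval 4.37 to 45.3) and 32.9 without antigen (66 against 2, interval 8.77 to 278). The intervals cover counting error only and overlap one another. In the annotation at hand Mzb1 shares 459 exon bases with SPATA24 on the same strand, and that gene had 0 counts in the deposited table.

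Derl3, which helps to draw misfolded proteins out of the endoplasmic reticulum, was likewise near absent from WT cultures. It had 52, 42 and 34 counts in knockout libraries with antigen and IL-1β, against 6, 0 and 1 in WT, a ratio of 19.5 (interval 9.2 to 49.5). Under antigen and IL-18 it had 71, 22 and 56 counts, against 2, 0 and 1 in WT, a ratio of 49.8 (interval 16.7 to 244). With antigen alone it had 63, 30 and 46, against 3, 3 and 2 in WT, a ratio of 16.2 (interval 8 to 38.3). Here WT libraries were at or near 0 and the groups did not overlap. In antigen-free cultures Derl3 was at 1.33, 1.01 and 1.17 CPM in knockout libraries, against 0.148, 0.145 and 0.394 CPM in WT libraries, a log2 fold change of 2.33 ± 0.534, again without overlap.

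Fkbp11, a peptidyl-prolyl isomerase of the secretory pathway that is often high in plasma cells, did not follow them. It had 3 to 16 counts in every library and reached the filter's level in 2 of 12 knockout and 3 of 12 WT libraries. Its means were 0.491 ± 0.274 CPM in knockout and 0.281 ± 0.211 CPM in WT cultures with antigen and IL-1β, and 0.386 ± 0.104 and 0.392 ± 0.131 CPM without antigen (SD, n = 3 each). No comparison called it, the log2 fold changes between genotypes ran from 0.00 to 0.81 with SEs of 0.474 to 0.511, and the groups overlapped in all 4 conditions. Even the largest, 0.81 ± 0.488 with antigen and IL-1β, was not called (edgeR adjusted p 0.316), so differences of about that size were not detectable at this depth.

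Pou2af1, the B lineage co-activator, was the transcriptional regulator with the widest difference. With antigen and IL-1β it stood at 12.5, 8.26 and 11.6 CPM in knockout libraries, against 1.35, 1.71 and 1.75 CPM in WT. Pou2af1 reached 15.2, 8.21 and 11.4 CPM in knockout libraries with antigen and IL-18, against 1.27, 1.13 and 1.35 CPM in WT. With antigen alone the values were 11.8, 8.40 and 11.1 CPM in knockout, against 0.621, 1.09 and 1.58 CPM in WT. No WT library reached a knockout library of its condition, and replicate 2 was the lowest knockout library in all 3. Without antigen Pou2af1 stood at 4.47, 3.67 and 3.64 CPM in knockout libraries and at 0.790, 0.579 and 0.935 CPM in WT libraries. The log2 fold changes were 2.74 ± 0.246 with antigen and IL-1β, 3.22 ± 0.257 with antigen and IL-18, 3.23 ± 0.268 with antigen and 2.35 ± 0.34 without it (edgeR adjusted p 5.78e-08, 8.88e-09, 1.68e-08 and 3.68e-05). A small intronic gene, Gm47828, lies inside Pou2af1 on the same strand with no shared exon bases and had 15 counts in all libraries together.

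Irf4, the factor that starts and maintains the plasma cell state and also acts in macrophages and T cells, was higher in knockout cultures by a smaller margin that was wider under antigen. With antigen and IL-1β it stood at 11.2, 7.78 and 9.89 CPM in knockout libraries, against 4.21, 3.59 and 4.64 CPM in WT. It was at 10.2, 8.10 and 9.39 CPM in knockout libraries with antigen and IL-18, against 3.29, 2.87 and 3.64 CPM in WT, and with antigen alone at 9.65, 8.84 and 10.5 CPM, against 3.22, 4.48 and 5.33 CPM in WT. In antigen-free cultures it was at 11.6, 11.5 and 11 CPM in knockout libraries, against 7.85, 9.17 and 8.07 CPM in WT. The groups did not overlap in any condition. Irf4 was 2.33-fold higher in knockout cultures with antigen and IL-1β, 2.83-fold with antigen and IL-18 and 2.21-fold with antigen alone (SE 0.143, 0.15 and 0.142 on the log2 scale, edgeR adjusted p 2.87e-07, 1.44e-08 and 7.76e-07). Without antigen it was 1.36-fold higher (log2 fold change 0.44 ± 0.127, adjusted p 0.0156). The call without antigen was lost when WT replicate 1 or WT replicate 3 was left out (adjusted p 0.0719 and 0.0631).

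Prdm1, which encodes the repressor that ends the B cell program, differed by at most 1.19-fold. With antigen and IL-1β it stood at 48.5, 42.4 and 45.0 CPM in knockout libraries and at 40.5, 37.7 and 36.1 CPM in WT libraries (log2 fold change 0.25 ± 0.0518, edgeR adjusted p 0.00108). In antigen-free cultures it was at 58.3, 61.2 and 59.1 CPM in knockout and 51.9, 50.5 and 49.6 CPM in WT libraries (0.23 ± 0.0496, adjusted p 0.00116). In both conditions every knockout library was above every WT library. The log2 fold change was 0.18 ± 0.0525 with antigen and IL-18 (adjusted p 0.0149), a call lost without knockout replicate 2 or WT replicate 1 (adjusted p 0.0687 and 0.0666). With antigen alone the means were 39.3 ± 1.57 CPM in knockout and 37.7 ± 1.21 CPM in WT cultures (SD, n = 3 each), with overlapping libraries and no call (0.06 ± 0.0525, adjusted p 0.513).

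Xbp1, the transcription factor of the unfolded protein response that plasma cells need for secretion, was abundant in every culture. It stood at 183, 168 and 176 CPM in knockout libraries with antigen and IL-18, against 159, 152 and 152 CPM in WT (log2 fold change 0.19 ± 0.035, edgeR adjusted p 0.000239). With antigen alone it stood at 171, 169 and 169 CPM in knockout and at 152, 151 and 154 CPM in WT libraries (0.15 ± 0.035, adjusted p 0.00243). In both conditions the groups did not overlap, but the difference was 1.14-fold or less. With antigen and IL-1β the log2 fold change was 0.10 ± 0.035 (adjusted p 0.0456), and this call was lost without low-count filtering (adjusted p 0.159), in a fit of the compared groups alone (0.0598) and when knockout replicate 1 or 3 or any WT replicate was left out (0.0604 to 0.231). Without antigen the means were 144 ± 1.33 CPM in knockout and 137 ± 4.45 CPM in WT cultures (SD, n = 3 each), which was not called (0.06 ± 0.0354, adjusted p 0.246).

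Sdc1, which encodes syndecan-1 (CD138), the usual surface marker of plasma cells, was the gene whose direction depended on antigen. Without antigen it was higher in knockout cultures, at 171, 169 and 176 CPM, against 129, 119 and 127 CPM in WT (log2 fold change 0.46 ± 0.0645, edgeR adjusted p 1.49e-05). With antigen it was lower in knockout cultures, at 80.1, 86.8 and 93.0 CPM, against 118, 111 and 119 CPM in WT (-0.42 ± 0.0663, adjusted p 8.33e-05). The libraries did not overlap in either condition. It was also lower in knockout cultures with antigen and IL-1β, at 96.8, 85.9 and 98 CPM, against 133, 109 and 119 CPM in WT (-0.36 ± 0.066, adjusted p 0.000538). It was at 99.1, 87.9 and 89.5 CPM in knockout libraries with antigen and IL-18, against 108, 118 and 110.0 CPM in WT libraries (-0.28 ± 0.0661, adjusted p 0.00391), again without overlap.

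Tnfrsf17 (BCMA), the receptor through which plasma cells receive survival signals, had 72 counts in all 24 libraries and was not tested. Without antigen it had 7, 7 and 16 counts in knockout libraries, against 5, 7 and 3 in WT libraries, which overlap. With antigen it had 4, 3 and 2 counts in knockout, against 0, 0 and 1 in WT, and with either cytokine 0 to 5 in knockout and 0 to 2 in WT libraries. The ratio of summed counts without antigen was 2.00 (30 against 15, exact 95% interval 1.04 to 3.99, counting error only). Fitted without the low-count filter, it was not called between genotypes in any condition (edgeR adjusted p 0.154 to 0.985). In that fit it was called lower with antigen in both genotypes, with 9 counts against 30 without antigen in knockout cultures (adjusted p 0.00594) and 1 against 15 in WT cultures (0.00216). DESeq2 gave 0.0537 and 0.0137.

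**Figure D2:**
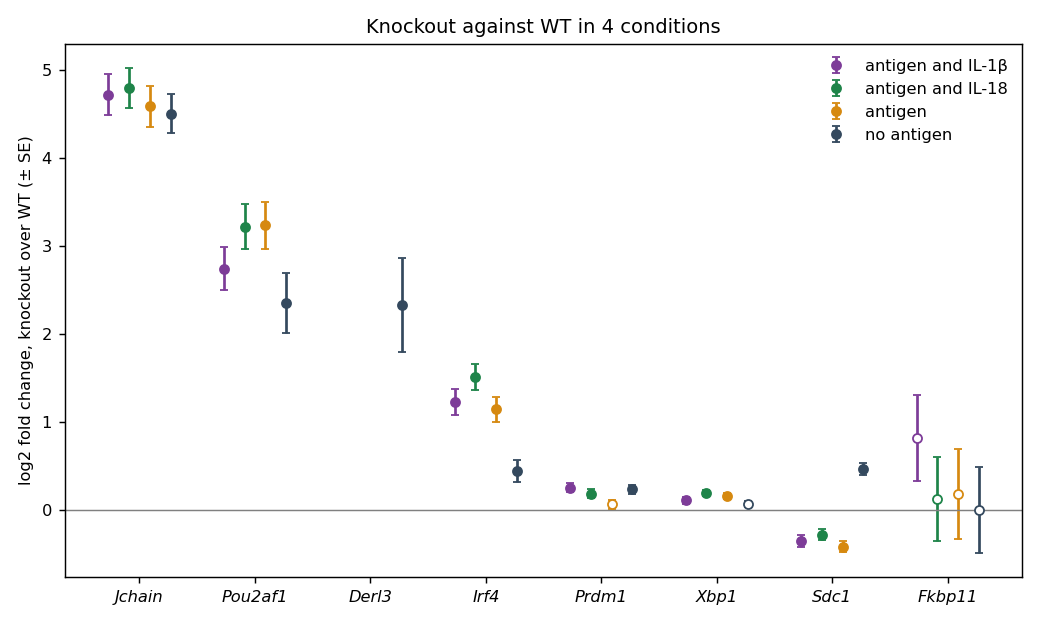
Log2 fold change, knockout over WT, ± SE for 8 plasma cell genes in 4 conditions (colours); filled points have an edgeR adjusted p under 0.05. Jchain lies between 4.50 and 4.79, Sdc1 is above 0 without antigen and below 0 in the other conditions, and Mzb1 (all conditions) and Derl3 (those with antigen) are left out where WT means were under 3 counts per library. The Derl3 point shown is a gene that passed the filter only through knockout libraries, so its fill is not read as a test.

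Tumour cell antigen moved the plasma cell genes in both directions. The antigen comparisons share their cultures with the genotype comparisons above, so the values below restate the same levels across another axis. In knockout cultures 3 of 9 were higher and 3 lower with antigen than without (33.8% of all genes were called higher and 34.6% lower, 68.3% in all), and in WT cultures 1 was higher and 2 lower (33.5% and 34.5%, 68.0% in all). These shares are near or below the share over all genes. Markers of other cells moved with antigen in the same libraries. Of 8 neutrophil markers, 6 were lower and 1 higher with antigen in knockout cultures (median log2 fold change -2.41) and 7 lower in WT cultures (-2.81). Their response was called higher in knockout cultures for 4 of 8 (3.79% of all genes were called higher in that test). Their sums were 421 to 472 CPM with antigen and 1269 to 1364 CPM without in knockout libraries, and 379 to 463 and 1219 to 1368 CPM in WT libraries. Of 10 T cell markers, 7 were higher in knockout cultures and 1 in WT cultures, though no T cell marker's response was called different between genotypes by edgeR. Of 5 NK cell markers, 1 was higher and 1 lower with antigen in knockout cultures and 4 were lower in WT cultures. Of 8 macrophage markers, 4 were higher and 3 lower in each genotype, and their sum was 8970 to 9885 CPM with antigen and 6524 to 6930 CPM without in knockout libraries, and 9753 to 10005 CPM with antigen and 6883 to 7115 CPM without in WT libraries. Their part in the antigen responses below was not tested.

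In knockout cultures Pou2af1 rose most, to 10.4 ± 1.81 CPM with antigen, against 3.93 ± 0.471 CPM without (SD, n = 3 each; log2 fold change 1.42 ± 0.212, edgeR adjusted p 4.69e-06). Derl3 was at 2.07 ± 0.594 CPM with antigen and 1.17 ± 0.157 CPM without (0.83 ± 0.341, adjusted p 0.0345), and Jchain at 145 ± 9.46 CPM with antigen and 191 ± 26.4 CPM without (-0.40 ± 0.161, adjusted p 0.0351). Both of these calls were marginal. DESeq2 gave adjusted p of 0.0745 for Derl3 and 0.0634 for Jchain, and the Derl3 call was lost without antigen replicates 1 or 3 or antigen-free replicates 2 or 3 (adjusted p 0.0607 to 0.161). The Jchain call was lost without any one of the antigen libraries, or antigen-free replicates 1 or 3 (adjusted p 0.0606 to 0.163). Sdc1 fell to 86.6 ± 6.45 CPM with antigen, against 172 ± 3.20 CPM without (-0.99 ± 0.0656, adjusted p 4.41e-12). Prdm1 fell to 39.3 ± 1.57 CPM with antigen, against 59.5 ± 1.48 CPM without (-0.60 ± 0.0504, adjusted p 1.86e-11), and Xbp1 rose to 170 ± 1.22 CPM with antigen, against 144 ± 1.33 CPM without (0.24 ± 0.0351, adjusted p 6.50e-07). Genes of the program thus went both ways in the same libraries.

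In WT cultures Irf4 fell to 4.34 ± 1.06 CPM with antigen, against 8.36 ± 0.709 CPM without (SD, n = 3 each; log2 fold change -0.93 ± 0.146, edgeR adjusted p 2.04e-06). Prdm1 fell to 37.7 ± 1.21 CPM with antigen, against 50.7 ± 1.14 CPM without (-0.42 ± 0.0516, adjusted p 2.71e-08), and Xbp1 rose to 152 ± 1.96 CPM, against 137 ± 4.45 CPM without (0.15 ± 0.0353, adjusted p 0.000424). Jchain was at 6.08 ± 1.58 CPM with antigen and 8.46 ± 1.03 CPM without (-0.49 ± 0.323, adjusted p 0.194), and Sdc1 at 116 ± 4.33 CPM with antigen and 125 ± 5.15 CPM without (-0.11 ± 0.0653, adjusted p 0.154). Both passed the threshold as lower with antigen in a fit of the 6 WT libraries alone (adjusted p 0.0247 and 0.0398).

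The antigen response itself differed between genotypes for 2 of 9 genes, 1 in each direction (3.79% of all genes were called higher and 4.60% lower, 8.39% in all). For Sdc1 the response was more negative in knockout cultures, by a log2 difference of -0.88 ± 0.0924 (edgeR adjusted p 1.81e-06). For Irf4 it was less negative in knockout cultures, by 0.70 ± 0.191 (adjusted p 0.0191). Irf4 was at 9.66 ± 0.827 CPM with antigen and 11.4 ± 0.346 CPM without in knockout cultures (SD, n = 3 each; -0.23 ± 0.123, adjusted p 0.102), a fall that was called in a fit of the 6 knockout libraries alone (adjusted p 0.0456). The Irf4 difference was lost when knockout replicate 3 or WT replicate 1 with antigen, or knockout replicate 3 or WT replicate 2 without antigen, was left out (adjusted p 0.0504 to 0.0719). For Pou2af1 the difference was 0.88 ± 0.503 (adjusted p 0.342) and for Jchain 0.08 ± 0.36 (adjusted p 0.937), neither called.

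**Figure D3:**
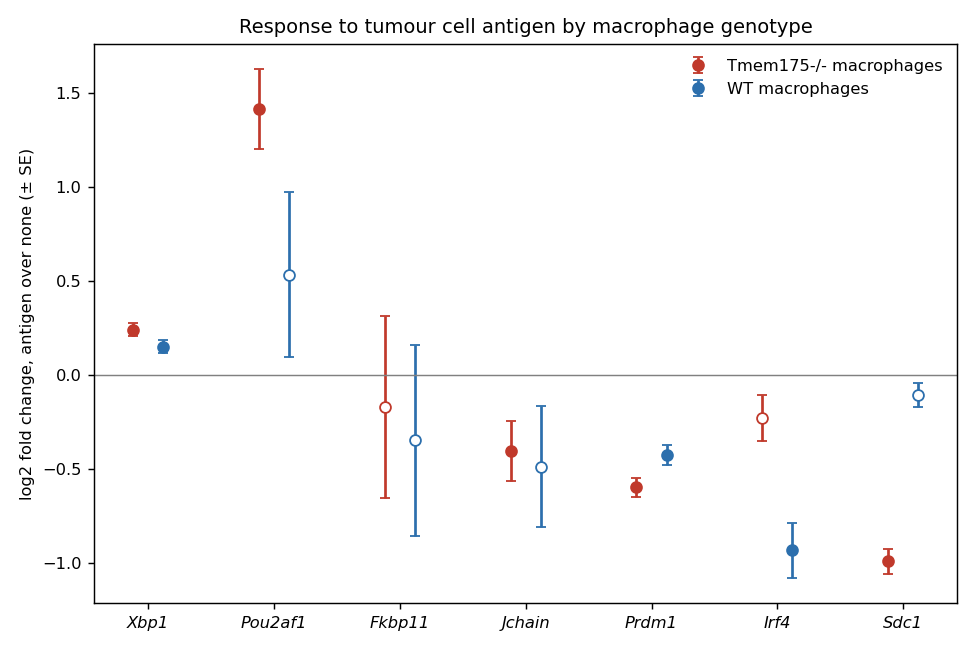
Log2 fold change, antigen over no antigen, ± SE for 7 plasma cell genes in knockout (red) and WT (blue) cultures; filled points have an edgeR adjusted p under 0.05. The difference between genotypes was called at Sdc1 (-0.99 in knockout and -0.11 in WT cultures) and Irf4 (-0.23 and -0.93), and not at Pou2af1 (1.42 and 0.53), where it was as wide as at Sdc1 with a larger error.

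No plasma cell gene was called by edgeR when either cytokine was added to antigen. With IL-1β edgeR called 0 of 9 in knockout cultures (0.0426% of all genes were called), where only Prdm1 had an unadjusted p under 0.05, and 0 of 9 in WT cultures (0.0284% of all genes higher and 0.0284% lower, 0.0567% in all), where none had. With IL-18 it called 0 of 9 in knockout cultures (0.213%), with none under 0.05 unadjusted, and 0 of 9 in WT cultures (0%), where only Irf4 was. DESeq2 also called 0 in each of the 4. Prdm1 stood at 45.3 ± 3.07 CPM in knockout cultures with antigen and IL-1β and at 39.3 ± 1.57 CPM with antigen alone (SD, n = 3 each; log2 fold change 0.20 ± 0.0515, edgeR adjusted p 0.138). It was called without the low-count filter (adjusted p 0.0216) and with a replicate block (0.0265). Irf4 stood at 3.27 ± 0.383 CPM in WT cultures with antigen and IL-18 and at 4.34 ± 1.06 CPM with antigen alone (-0.43 ± 0.169, adjusted p 1). Among genes with a fold, log2 fold changes ran from -0.02 to 0.49 for IL-1β and from -0.06 to 0.28 for IL-18 in knockout cultures, and from -0.15 to 0.53 and -0.43 to 0.29 in WT cultures. The genotypes' cytokine responses did not differ for any of 9 genes by the edgeR test (0% of all genes for either cytokine). For IL-1β only Prdm1 had an unadjusted p under 0.05, for IL-18 none had, and DESeq2 called 0 for both.

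Igkc, which encodes the constant part of kappa light chains, had a wider difference between genotypes than Jchain, with log2 fold changes of 5.71 ± 0.264 with antigen and IL-1β, 5.72 ± 0.263 with antigen and IL-18, 5.69 ± 0.264 with antigen and 5.64 ± 0.266 without it. Jchain counts per 1000 Igkc counts were 192, 211 and 196 in knockout libraries with antigen and IL-1β, against 347, 401 and 445 in WT. With antigen and IL-18 the means were 196 ± 2.95 in knockout and 375 ± 17.3 in WT cultures, with antigen 174 ± 5.52 and 373 ± 6.61, and without antigen 277 ± 14.4 and 614 ± 56.6 (SD, n = 3 each). Every knockout library was below every WT library of its condition. Averaged over the 4 conditions, the log2 ratio of Jchain to Igkc was lower in knockout cultures by a difference of -1.04 (two-sided exact permutation within conditions, p = 1.25e-05, the smallest this design allows; lower in all 4 conditions). Mzb1 counts per 1000 Igkc counts were 0.732 to 1.68 in knockout libraries and 0 to 9.80 in WT libraries, where each library had 0 to 3 Mzb1 counts, so the ratios overlap and nothing is read from them. Set against Ighm, the constant region of IgM, Jchain was instead higher in knockout cultures, by a log2 difference of 3.47 (exact permutation p = 1.25e-05). Ighm was at 94.1 ± 15.8 CPM in knockout and 31.1 ± 2.80 CPM in WT cultures with antigen, and at 79.6 ± 4.92 and 82.7 ± 4.94 CPM without antigen (SD, n = 3 each). The direction of the ratio therefore depended on which antibody gene was taken as denominator.

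**Figure D4:**
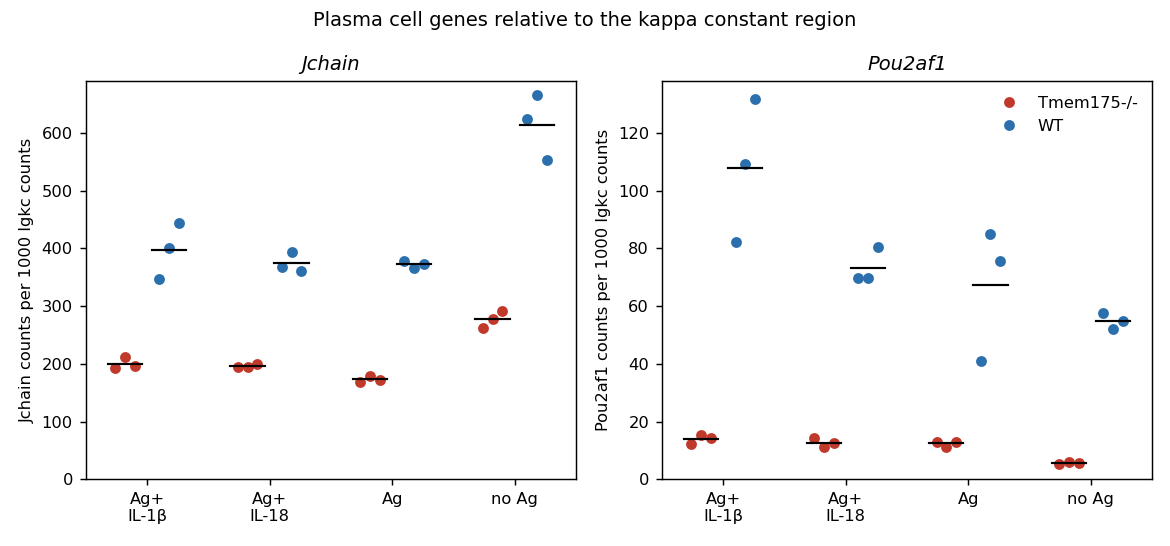
Counts of Jchain (left) and Pou2af1 (right) per 1000 Igkc counts in each library, with Tmem175-/- libraries (red) left of WT libraries (blue) and a bar at the mean of 3. For Jchain the means are 174 to 277 in knockout and 373 to 614 in WT cultures; for Pou2af1 they are 5.70 to 13.9 and 54.9 to 108.

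Per kilobase of exon (GENCODE vM21 exon unions), the order of levels also differed between genotypes. Without antigen Jchain led in knockout cultures at a level of 76.0 CPM per kilobase, followed by Sdc1 at 45.2, Xbp1 at 44.2 and Prdm1 at 10.7. In WT cultures Xbp1 led at 42.3 CPM per kilobase, followed by Sdc1 at 32.8 and Prdm1 at 9.08, with Jchain at 3.36. Irf4 stood at 2.32 in knockout and 1.71 in WT cultures, Pou2af1 at 1.54 and 0.301, Mzb1 at 0.889 and 0.0267, Derl3 at 0.586 and 0.115, Tnfrsf17 at 0.587 and 0.299, and Fkbp11 at 0.143 and 0.145 CPM per kilobase. Sdc1, Xbp1 and Prdm1 thus stood above the other genes per length in WT cultures. In knockout cultures without antigen, Sdc1 and Xbp1, and Derl3 and Tnfrsf17, were close in level. In knockout cultures with antigen alone they stood apart, with Sdc1 at 22.7, Xbp1 at 52.2, Derl3 at 1.04 and Tnfrsf17 at 0.167 CPM per kilobase.

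Genes with the most similar pattern were sought as the smallest root mean square difference between group means of log2 CPM, centred on the gene's own mean, over 8 groups. For Mzb1 the nearest outside the antibody loci were Bhlha15 (distance 0.19), which encodes MIST1, a factor of secretory cells that plasma cells also express, Oosp1 (0.20) and Cpne8 (0.26). Bhlha15 was at 0.837 ± 0.275 CPM in knockout and 0.0490 ± 0.0494 CPM in WT cultures without antigen, and at 0.864 ± 0.0909 and 0.0796 ± 0.0214 CPM with antigen (SD, n = 3 each). Derl3 was nearest to Amd2 (0.31), Epcam (0.38) and Bhlha15 (0.39), and Jchain to Amd2 (0.70), Epcam (0.75) and Derl3 (0.80). In WT libraries Bhlha15 and Oosp1 had 0 to 2 counts and Epcam 0 to 5. Like Mzb1 and Derl3, these 3 passed the filter only through knockout libraries. Genes near 0 in WT cultures and low in knockout cultures lie close together for that reason alone, so nothing is read from their nearness. Jchain was much closer to antibody rows, the nearest being Igkv15-103 (0.22). Amd2 is a near-identical copy of Amd1, so reads may be split between the 2 genes and its counts are uncertain. Pou2af1 was nearest to Cacna1h (0.27), Lrmda (0.28) and 1 unnamed gene (0.33). Cacna1h and the unnamed gene were at most 0.163 and 0.174 CPM in WT libraries, below the filter's 0.482 CPM. Nothing is read from the nearness of those either.

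The remaining regulators kept other company. Irf4 was nearest to C1qtnf1 (0.21), Endou (0.25) and Zfp951 (0.25), and equally near to the antibody row Ighm (0.21). C1qtnf1 was at most 0.345 CPM in WT libraries, below the filter's 0.482 CPM, so nothing is read from its nearness. Xbp1 was nearest to Got2 (0.02), Cox5b (0.03) and Ap2s1 (0.03), Prdm1 to Acer3 (0.04), Lta4h (0.04) and Hmga1 (0.05), and Sdc1 to Ypel2 (0.09), Bcl2a1b (0.10) and Gpr157 (0.10). Fkbp11 was nearest to Zfp239 (0.10), Gm14586 (0.11) and Pigz (0.11). Short distances are easily reached by genes that vary little, so distances are not comparable between members. Between members, Prdm1 and Sdc1 stood 0.23 apart, Derl3 and Mzb1 0.52, Mzb1 and Pou2af1 0.61 and Jchain and Sdc1 2.40.

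Genes of the wider secretory machinery had median fold changes near 0 between genotypes. Of 35 genes of endoplasmic reticulum folding and export, many of them XBP1 targets, 1 was higher and 5 lower in knockout cultures with antigen and IL-1β, 3 and 5 with antigen and IL-18, 1 and 7 with antigen, and 1 and 2 without antigen. Over all genes 13.8%, 20.2%, 15.3% and 16.9% were called in either direction in these comparisons. Called higher were 7.22%, 9.89%, 7.70% and 9.62%, and called lower were 6.55%, 10.3%, 7.62% and 7.25%. The median log2 fold change of this list was -0.04, 0.00, -0.04 and 0.01 in the same order, beside 0.00, 0.01, 0.00 and 0.01 over all genes. Creld2, a stress-induced protein of the endoplasmic reticulum, was higher with antigen (0.46 ± 0.084, edgeR adjusted p 0.000269), while Ern1, which encodes the sensor IRE1 that splices Xbp1 mRNA, was lower (-0.22 ± 0.0474, adjusted p 0.00147). Without antigen Edem2 was higher (0.34 ± 0.0546, adjusted p 3.63e-05) and Herpud1 lower (-0.36 ± 0.0603, adjusted p 5.48e-05), both genes of protein disposal from the endoplasmic reticulum. Summed over the list, every knockout library was below every WT library with antigen, at 6842 to 6884 CPM against 7086 to 7316 CPM. Without antigen the sums overlapped, at 7264 to 7704 CPM in knockout and 7336 to 7657 CPM in WT libraries.

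Of 26 further genes of plasma cells and plasmablasts 24 were tested, and in knockout cultures 6 were higher and 2 lower with antigen and IL-1β, 7 and 3 with antigen and IL-18, 3 and 3 with antigen, and 4 and 2 without antigen (13.8%, 20.2%, 15.3% and 16.9% of all genes in either direction). Their median log2 fold changes were 0.07, 0.13, 0.09 and 0.00, beside 0.00, 0.01, 0.00 and 0.01 over all genes. Cxcr3, a chemokine receptor of plasmablasts and T cells, was higher with antigen and IL-18 (0.98 ± 0.191, edgeR adjusted p 0.000447), as was the integrin chain Itgb7 (0.53 ± 0.0908, adjusted p 0.000309). Igf1r was lower with antigen (-0.51 ± 0.0998, adjusted p 0.00052), and Cd28 was lower without antigen (-0.38 ± 0.0613, adjusted p 5.12e-05). Epcam, on the same list, was at 1.04 ± 0.0697 CPM in knockout and 0.114 ± 0.0289 CPM in WT cultures without antigen (SD, n = 3 each) and passed the filter only through knockout libraries.

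Signals that keep plasma cells alive were more often called lower than higher in knockout cultures. Of 12 such ligands and adhesion molecules 8 were tested, and 1 was higher and 3 lower in knockout cultures with either cytokine, 0 and 3 with antigen, and 1 and 3 without antigen. Over all genes 7.22% were higher and 6.55% lower with antigen and IL-1β, 9.89% and 10.3% with antigen and IL-18, 7.70% and 7.62% with antigen, and 9.62% and 7.25% without. Median log2 fold changes of the list were -0.35, -0.36, -0.11 and -0.28 in that order, beside 0.00, 0.01, 0.00 and 0.01 over all genes. Vcam1, an adhesion molecule of plasma cell niches, was lower without antigen (-1.90 ± 0.0828, edgeR adjusted p 1.87e-14) and with it (-1.30 ± 0.0772, adjusted p 9.28e-12). Cxcl12, the chemokine that draws plasma cells to marrow, was lower without antigen (-2.04 ± 0.424, adjusted p 0.0025) and with it (-1.51 ± 0.404, adjusted p 0.0162), and Il6 was lower with antigen (-1.23 ± 0.249, adjusted p 0.00128). Tnfsf13 (APRIL), the ligand of the receptor encoded by Tnfrsf17, was higher without antigen, at 4.70 ± 0.483 CPM in knockout and 2.51 ± 0.00413 CPM in WT cultures (SD, n = 3 each; 0.91 ± 0.163, adjusted p 0.000175).

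B cell identity genes moved in both directions. Of 19 tested, 4 were higher and 4 lower in knockout cultures with antigen and IL-1β, 5 and 3 with antigen and IL-18, 2 and 7 with antigen, and 3 and 6 without antigen (13.8%, 20.2%, 15.3% and 16.9% of all genes in either direction). Median log2 fold changes were -0.13, 0.02, -0.18 and 0.10, beside 0.00, 0.01, 0.00 and 0.01 over all genes. Pax5, the B cell factor that BLIMP-1 represses, was lower without antigen, at 0.214 ± 0.0459 CPM in knockout and 1.54 ± 0.341 CPM in WT cultures (SD, n = 3 each; -2.82 ± 0.397, edgeR adjusted p 5.39e-06), and with antigen (-1.20 ± 0.267, adjusted p 0.00198). Spib, a factor of B cells and plasmacytoid dendritic cells, was lower without antigen (-1.86 ± 0.268, adjusted p 7.68e-06) and with it (-1.94 ± 0.244, adjusted p 9.82e-07). Pax5 and Spib are both from the lower side of the list, which also held 3 genes called higher without antigen and 2 with antigen, so they do not stand for it as a whole. The B cell receptor gene Cd79a stood at 1.65 ± 0.255 CPM in knockout and 1.31 ± 0.296 CPM in WT cultures without antigen (SD, n = 3 each), within the spread of the libraries. Antibody constant regions moved with Jchain, with 11 of 12 higher and 0 lower in knockout cultures in each condition with antigen, and 10 higher and 1 lower without.

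Some markers of other cells also moved with genotype. Over all genes 7.22% were called higher and 6.55% lower with antigen and IL-1β, and 9.89% and 10.3% with antigen and IL-18. The shares were 7.70% and 7.62% with antigen, and 9.62% and 7.25% without. For lists of 8 or 10 tested markers, a single call is near these shares. Of 10 plasmacytoid dendritic cell markers 8 were tested, and in knockout cultures 1 was higher and 2 lower with antigen and IL-1β, 1 and 3 with antigen and IL-18, 1 and 1 with antigen, and 1 and 3 without antigen. Their summed level was 417 to 419 CPM in knockout and 412 to 454 CPM in WT libraries with antigen, and 141 to 153 and 157 to 169 CPM without. Siglech averaged 0.261, 0.451, 0.231 and 0.582 CPM in knockout cultures and 0.673, 0.424, 0.580 and 1.88 CPM in WT cultures with antigen and IL-1β, antigen and IL-18, antigen, and no antigen. Ly6d, the marker called higher in every condition and also known in B lineage cells, averaged 3.13, 3.07, 3.69 and 4.50 CPM in knockout and 1.24, 1.26, 1.22 and 1.21 CPM in WT cultures in that order. Of 7 stromal markers 5 were lower in knockout cultures in each condition with antigen and 3 without, with sums of 40.4 to 48.6 CPM in knockout and 121 to 183 CPM in WT libraries with antigen, and 12.5 to 28.4 and 27.8 to 97.6 CPM without. Of 8 neutrophil markers 7 were higher in knockout cultures with antigen and IL-1β, 6 with antigen and IL-18 and 2 with antigen, and 1 was lower without antigen, with sums of 483 to 628 CPM in knockout and 359 to 409 CPM in WT libraries with antigen and IL-1β. Of 5 tested dendritic cell markers 2 to 4 were lower in knockout cultures in each condition and none higher, and of 10 T cell markers 1 was higher with antigen and 1 with antigen and IL-1β. Of 5 tested NK cell markers 1 was higher in knockout cultures in each condition with antigen and 1 lower without, with sums of 8.03 to 9.44 CPM in knockout and 5.70 to 6.66 CPM in WT libraries with antigen, and 7.03 to 8.95 and 11.6 to 12.7 CPM without. Of 6 epithelial markers 2 were tested. Krt8, Krt5 and Krt14 had 0 counts in every library, Krt18 was at most 0.107 CPM, and Cdh1 averaged 0.357 CPM in knockout and 0.571 CPM in WT cultures without antigen. The epithelial sum, Epcam included, was 1.28 to 1.47 CPM in knockout and 0.543 to 0.935 CPM in WT libraries without antigen. The part of these cells in the differences of the plasma cell genes was not tested.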

How the data were processed

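Poly(A) RNA was extracted with Trizol, per the labels' protocols. The authors deposited raw counts per Ensembl gene, 1 column per library and no pooling. The submitters' processing notes name fastp and GRCm39; the aligner, counter, annotation and strand setting are not given in the sources used here, so overlapping antisense genes could not be told apart. Titles gave the groups. In 11 of 12 knockout samples the genotype label instead names a gene other than Tmem175 as the deleted one, and these names are consecutively numbered.

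Symbols were matched by Ensembl identifier (346 of 55487 had none). edgeR 4.0.16 in R 4.3.3 kept 14099 genes with filterByExpr (99.9% of counts), scaled with TMM and fitted 24 libraries with 1 coefficient per group, robustly. The depth of 17744540 to 24898552 counts sets the precision, and where a group mean was under 3 counts per library no fold is given. Replicate pairs differed beyond counting error (chi-square per degree of freedom 1.43 to 15.3). The fit was tested on simulated data. Alternatives were DESeq2 1.42.0, its size factors, no filter, a replicate block, compared groups alone, immunoglobulin rows left out and each library left out. Besides the 10 genes, the text names the 3 genes nearest to each in pattern and up to 4 called genes per list and comparison averaging at least 1 CPM; Siglech and the epithelial genes other than Epcam were added after their values were seen. The genes and lists were chosen with earlier results of these data known. Exon lengths came from GENCODE vM21 (GRCm38).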

Additional observations from a re-analysis of the deposited data

Results flagged for a closer look

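The response to tumour cell antigen was called different between macrophage genotypes for 2 of 9 plasma cell genes, by the test of the difference itself. Over all genes 8.39% were called. For Sdc1 the difference was -0.88 on the log2 scale (knockout response -0.99, WT response -0.11). For Irf4 it was 0.70 (knockout response -0.23, WT response -0.93). The Irf4 call was lost when certain single libraries were left out (edgeR adjusted p 0.0504 to 0.0719).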

How the results depend on the processing

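Of 1547 values of single plasma cell genes under the alternatives, 1515 kept their direction and side of the threshold, 27 lost a call, 5 gained one and none changed sign as a called value. Without Mzb1 and Derl3, which passed the filter only through knockout libraries, 5 to 6 of 7 genes were called between genotypes, a count added after the data were seen. With each library left out in turn and all 9 counted, 7 to 8 of 9 genes were called in knockout against WT cultures with either cytokine. The number was 7 with antigen and 6 to 7 without. In the main fit 13.8% to 20.2% of all genes were called in these genotype comparisons. For antigen the number was 4 to 5 in knockout and 3 in WT cultures, beside 68.3% and 68.0% of all genes in the main fit. It was 1 to 2 for the difference of antigen responses (8.39% of all genes) and 0 for each cytokine comparison (0% to 0.213%). IL-1β in knockout cultures gave 1 call without the low-count filter and 1 with a replicate block, and antigen in WT cultures gave 5 in a fit of the compared groups alone. The cause was not tested. Correlations between same-numbered replicates were positive but low (0.00157 to 0.229), and in no comparison were all 3 above 0.1, the level set for pairing. Whether same-numbered replicates shared a preparation was not tested. The replicate block changed no other count. The ratio differences to Igkc were -1.07 to -1.02 for Jchain and -1.87 to -1.46 for Mzb1 with 1 library left out; with 0 to 3 Mzb1 counts per WT library the Mzb1 values follow from the counts added before the log and support nothing. With 1 count added they were -1.05 and -2.20, and against all immunoglobulin rows -0.43 (exact permutation p = 0.0001) and -1.02. They reversed to 3.47 and 2.88 against Ighm. Counts under about 10 per library limit Mzb1, Derl3, Fkbp11 and Tnfrsf17 in WT cultures.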
